A study of Mus musculus with 8 samples.

Results

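The genes of the MHC class I pathway and of the immunoproteasome were followed in cochlear RNA seq of WT and *Opa1*+/- mice. The group holds 10 of the 47628 named entries of the count tables, chosen by symbol: the heavy chains *H2-K1* and *H2-D1*, their light chain *B2m*, the peptide-loading genes *Tap1*, *Tap2* and *Tapbp*, the inducible proteasome subunits *Psmb8*, *Psmb9* and *Psmb10*, and the regulator *Nlrc5*. RNA came from the isolated cochleae of 4 WT animals, labelled WT_4, WT_5, WT_6 and WT_8, and of 4 *Opa1*+/- littermates, labelled Het_2, Het_7, Het_484 and Het_491, all untreated and 21 days old, in a mixed C57BL/6J × 129Sv/Pas background. The *Opa1*+/- mice carry 1 knock-in allele with the delTTAG deletion of human patients in all their cells, while WT mice carry none. *Opa1*, which encodes a GTPase of the mitochondrial inner membrane, ranged from 111.7 to 125.9 CPM (counts scaled to library size) in WT and from 60.4 to 70.02 CPM in *Opa1*+/- mice, so each label matched its library. Its log2 fold change was -0.87, with a Benjamini-Hochberg adjusted p of 0.00515 in the quasi-likelihood test of edgeR.

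MHC class I molecules display short peptides from inside the cell to CD8 T cells. A polymorphic heavy chain pairs with beta-2 microglobulin, the TAP transporter carries peptides into the endoplasmic reticulum, and tapasin holds the empty molecule beside the transporter until a peptide binds. The peptides come largely from the proteasome, in which interferons can replace the constitutive catalytic subunits with inducible ones to form the immunoproteasome. NLRC5 is a transactivator that works at the conserved promoter elements of class I genes.

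Each of the 10 genes had counts in all 8 libraries, and all 10 passed the filter on low counts, a mean normalized count over 10. None differed between the genotypes at an adjusted p under 0.05, either in edgeR or in DESeq2's Wald test. Among the 19366 entries tested, edgeR called 0.0207% higher and 0.00516% lower in *Opa1*+/- mice, and DESeq2 called 0.114% higher. At an unadjusted p under 0.05, 5 of the 10 genes were higher and 0 were lower in edgeR, where 3.51% of all entries were higher and 3.22% lower. The same count in DESeq2 was 5 higher, against 2.88% of all entries. The 5 genes in edgeR were *H2-K1*, *H2-D1*, *Psmb8*, *Psmb10* and *Nlrc5*. With 1 mouse left out, between 2 and 5 of the 10 were higher at such a p, against 1.76 to 6.03% of all entries. All 10 fitted log2 fold changes were above 0, as were 50.1% of all fitted values, and their median was 0.20 against 0.000395 over all entries tested. The 10 values come from the same 8 libraries, so their directions are not independent of one another.

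The 10 genes lie on 3 chromosomes of the mouse genome (GRCm38, GENCODE vM21). Of these, 7 are in the MHC region of chromosome 17, from *Tapbp* at chr17:33915899-33929292 to *H2-D1* at chr17:35262730-35267499. *Psmb9*, *Tap1*, *Psmb8* and *Tap2* follow each other within 34335 bases there, chr17:34181987-34216321. *Tap1* on the plus strand and *Psmb9* on the minus strand overlap by 212 bases. *Nlrc5* (chr8:94434356-94527272) and *Psmb10* (chr8:105935735-105938444) share chromosome 8, and *B2m* stands alone at chr2:122147686-122153083.

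Promoters were searched in the RefSeq sequences (GRCm38.p6), which run from 250 bases before to 50 bases after each gene's start and hold 8 of the 10 genes. A TGACG half-site, any 20 bases and ATTGG, the reverse complement of a CCAAT box, occurred in that order on the sense strand in 19 of 32851 promoters, or 0.0578%. *B2m*, *H2-D1* and *H2-K1* were among these 19. The 150 bases before the RefSeq start of each are shown, with the half-site and ATTGG in capitals, because the light chain and both classical heavy chains hold the pair, although *B2m* sits on another chromosome. They cover chr2:122147537-122147686 on the plus strand for *B2m*, chr17:35262944-35263093 on the plus strand for *H2-D1*, and chr17:34000348-34000497 on the minus strand for *H2-K1*. For *H2-D1* the RefSeq start, base 35263094, lies downstream of the GENCODE start given above, so this stretch is inside the gene as GENCODE draws it.
B2m: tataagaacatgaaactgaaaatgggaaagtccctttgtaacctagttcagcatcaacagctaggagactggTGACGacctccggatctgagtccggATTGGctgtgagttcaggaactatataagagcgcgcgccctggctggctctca
H2-D1: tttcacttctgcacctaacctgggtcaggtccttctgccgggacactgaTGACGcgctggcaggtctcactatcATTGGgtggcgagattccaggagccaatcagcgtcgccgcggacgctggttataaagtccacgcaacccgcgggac
H2-K1: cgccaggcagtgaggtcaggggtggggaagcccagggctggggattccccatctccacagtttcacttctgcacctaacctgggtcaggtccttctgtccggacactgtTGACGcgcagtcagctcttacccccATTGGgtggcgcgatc

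The first base of the half-site lay at -78 in *B2m*, -101 in *H2-D1* and -41 in *H2-K1*, counted from the RefSeq start with -1 as the base before it. The spaced pair was noticed on reading these promoters, so its presence in them is a description. The core of the interferon-stimulated response element, GAAANNGAAA on either strand, was found in 3.44% of all promoters and in 1 of the 8, *B2m*. The core of the gamma-activated site, TTCNNNGAA on either strand, was found in 8.30% of all promoters and in 1 of the 8, *Psmb8*. Both searches took exact strings, so sites that differ in any fixed base were not counted. A CCAAT box on either strand was present in 37.4% of all promoters and in 6 of the 8, and TGACG on either strand in 20.8% and in 5 of the 8. The spaced pair contains both of these shorter motifs.

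Levels between genes were compared as CPM per kb of annotated exon. In WT cochleae *B2m* was the highest of the 10, at 284.8 ± 8.65 CPM per kb (SD, n = 4). *H2-D1* followed with 38.9 ± 1.98 CPM per kb (SD, n = 4) and *H2-K1* with 30.7 ± 1.54 CPM per kb (SD, n = 4). Both heavy chains were therefore well below their light chain in every mouse, and *H2-D1* exceeded *H2-K1* in each of the 8 mice, although the ranges of the 2 genes over all mice overlapped. *Tapbp* was next at 24.3 ± 2.59 CPM per kb in WT (SD, n = 4). *Psmb10* had 6.75 ± 1.004, *Tap2* 5.02 ± 0.603 and *Psmb8* 3.10 ± 0.492 CPM per kb in WT (SD, n = 4 each). The ranges over the 8 mice overlapped between *Psmb10* and *Tap2* and between *Tap2* and *Psmb8*, while within a mouse *Psmb10* exceeded *Tap2* in 7 of 8 and *Tap2* exceeded *Psmb8* in 8 of 8. *Tap1* at 1.499 ± 0.159, *Psmb9* at 0.916 ± 0.1498 and *Nlrc5* at 0.146 ± 0.0594 CPM per kb (SD, n = 4 each) closed the order. Exon length was taken over all annotated transcripts of a gene, so levels of genes with long rare transcripts are understated.

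*H2-K1*, a classical heavy chain, stood at 94.98, 85.1, 92.9 and 88.0 CPM in mice WT_4, WT_5, WT_6 and WT_8. In mice Het_2, Het_7, Het_484 and Het_491 it stood at 100.2, 107.4, 112.4 and 97.2 CPM. All 4 *Opa1*+/- mice were above all 4 WT mice, which held for 1 of the 10 genes and, in this direction, for 1.98% of all entries. The means were 90.2 ± 4.52 and 104.3 ± 6.89 CPM (SD, n = 4 each), a log2 fold change of 0.21 (standard error 0.0667). Its p was 0.0113 before and 0.722 after adjustment in edgeR's quasi-likelihood test, and 0.52 after adjustment in DESeq2. The exact two-sided permutation test gave 0.0286, the smallest p that 4 mice against 4 allow.

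*H2-D1*, the other classical heavy chain measured here, had 106.4, 94.8, 102.2 and 97.6 CPM in the WT mice in the same order. In the *Opa1*+/- mice it had 111.3, 123.7, 127.5 and 102.0 CPM. Het_7 and Het_484 were the highest of the 8, as they were for *H2-K1*, whereas Het_491 fell among the WT mice. The log2 fold change was 0.21 with a standard error of 0.0805, and an edgeR p of 0.0261 before and 0.722 after adjustment. The exact two-sided permutation p was 0.0857. The unadjusted edgeR p was between 0.0664 and 0.0768 without WT_5, WT_8, Het_7 or Het_484.

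*B2m*, the light chain of every class I molecule, was measured at 248.5, 242.3, 253.1 and 236.0 CPM in the WT mice. Values in the *Opa1*+/- mice were 243.8, 270.9, 283.1 and 265.3 CPM. Het_7, Het_484 and Het_491 exceeded all WT mice, and Het_2 was inside the WT range. The means of 245.0 ± 7.44 and 265.8 ± 16.4 CPM (SD, n = 4 each) differed by 0.12 on the log2 scale, with a standard error of 0.0630. This was not past either threshold (edgeR p of 0.0932, adjusted p of 0.762), and its 95% confidence interval ran from -0.024 to 0.26. With 1 mouse left out the value lay between 0.090 (without Het_484) and 0.16 (without Het_2), where the unadjusted p was 0.0346, and it was 0.071 without both Het_484 and Het_491.

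**Figure D1:**
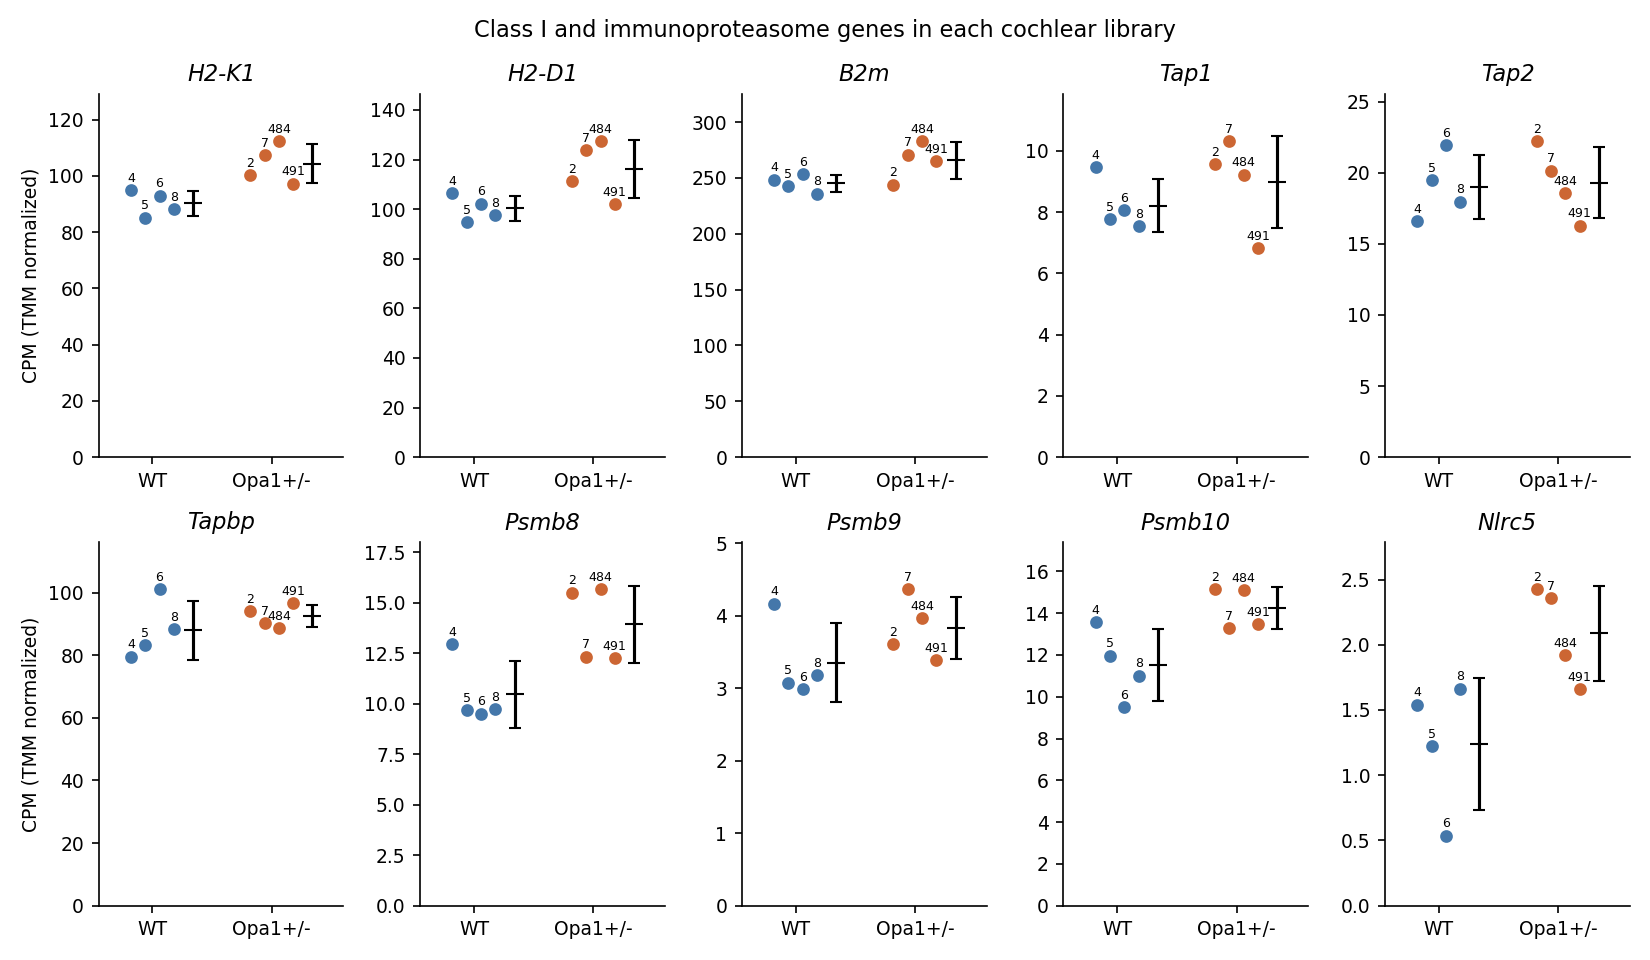
CPM after TMM normalization (y axes from 0) of the 10 class I and immunoproteasome genes in each of the 4 WT and 4 Opa1+/- cochlear libraries, 1 point per mouse with the number of its label; the black marks give the mean and SD. The points of the groups do not overlap for H2-K1, and overlap for the other 9 genes, with WT_4 the highest WT mouse for 6 genes and Het_491 the lowest Opa1+/- mouse for 7.

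With all 8 mice, none of the genes of peptide transport and loading had an unadjusted p under 0.05 in edgeR. *Tap1*, a subunit of the transporter, had 9.47, 7.76, 8.07 and 7.54 CPM in the WT mice and 9.58, 10.3, 9.22 and 6.83 CPM in the *Opa1*+/- mice. Het_491 was the lowest of all 8 and Het_7 the highest, so the *Opa1*+/- group enclosed the WT group. The log2 fold change was 0.13, with a 95% confidence interval from -0.19 to 0.45 and an edgeR p of 0.371 (adjusted p of 0.878). It ran from 0.059 without Het_7 to 0.24 without Het_491. *Tap2*, the partner subunit, ranged from 16.6 to 21.9 CPM in WT and from 16.3 to 22.2 CPM in *Opa1*+/- mice, with a log2 fold change of 0.025 and an interval from -0.24 to 0.29. Its sign turned when WT_4, WT_8 or Het_2 was left out. *Tapbp*, which encodes tapasin, ranged from 79.5 to 101.0 CPM in WT and from 88.7 to 96.6 CPM in *Opa1*+/- mice, with a log2 fold change of 0.071 and an interval from -0.11 to 0.25. The *Opa1*+/- mice lay inside the WT range for this gene, and the value ran from 0.027 without WT_4 to 0.14 without WT_6, where the unadjusted edgeR p was 0.0419.

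*Psmb8*, the inducible subunit that takes the place of *Psmb5*, had 12.96, 9.67, 9.50 and 9.74 CPM in the WT mice. The *Opa1*+/- mice had 15.5, 12.3, 15.7 and 12.3 CPM. WT_4 stood apart from the other WT mice and within the *Opa1*+/- range, while each *Opa1*+/- mouse exceeded WT_5, WT_6 and WT_8. The means were 10.5 ± 1.66 and 13.9 ± 1.90 CPM (SD, n = 4 each), and the log2 fold change was 0.41 with a standard error of 0.137. The edgeR p was 0.0137 before and 0.722 after adjustment, and the exact two-sided permutation p was 0.0857.

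*Psmb10*, the counterpart of *Psmb7*, showed 13.6, 11.96, 9.50 and 11.02 CPM in the WT mice and 15.1, 13.3, 15.1 and 13.5 CPM in the *Opa1*+/- mice. The overlap came from WT_4, which was above Het_7 and Het_491. The log2 fold change was 0.31 with a standard error of 0.117, and an edgeR p of 0.0264 (adjusted p of 0.722) and an exact two-sided permutation p of 0.0857. *Psmb9*, the counterpart of *Psmb6*, was scarcer, at 4.17, 3.08, 2.99 and 3.18 CPM in the WT mice and 3.61, 4.36, 3.96 and 3.38 CPM in the *Opa1*+/- mice. WT_4 again exceeded the other WT mice, here also 3 of the 4 *Opa1*+/- mice. The log2 fold change was 0.19, with an interval from -0.16 to 0.55 and an edgeR p of 0.253 (adjusted p of 0.833). With 1 mouse left out, the log2 fold change of *Psmb8* ran from 0.36 without Het_484 to 0.53 without WT_4. That of *Psmb10* ran from 0.23 without WT_6 to 0.39 without WT_4, and its unadjusted edgeR p was above 0.05 without WT_6, WT_8, Het_2 or Het_484. That of *Psmb9* ran from 0.12 without Het_7 to 0.31 without WT_4.

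*Nlrc5*, the transactivator, was the least abundant of the 10, with 27, 25, 9 and 34 counts in the WT mice and 41, 47, 31 and 26 counts in the *Opa1*+/- mice. In CPM these were 1.54, 1.22, 0.538 and 1.66 for WT against 2.42, 2.36, 1.92 and 1.66 in *Opa1*+/- mice. WT_6 was the lowest, and WT_8 and Het_491 were level. The log2 fold change of 0.74 was the largest of the 10 and the least precise (standard error 0.307, 95% confidence interval from 0.053 to 1.43). The edgeR p was 0.0374 (adjusted p of 0.728), and the exact two-sided permutation p was 0.0571. Leaving out WT_6 reduced the value to 0.51, and leaving out WT_8 raised it to 0.91. The unadjusted edgeR p was between 0.0526 and 0.0874 without WT_5, Het_2, Het_7 or Het_484.

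**Figure D2:**
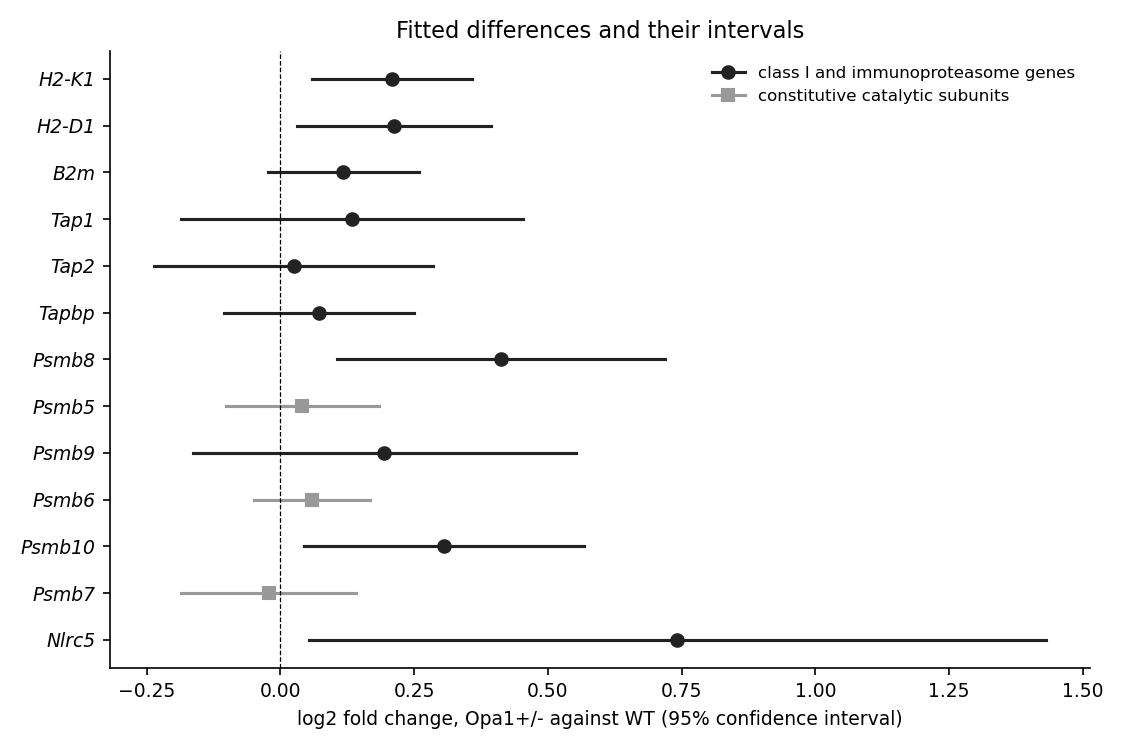
Log2 fold changes of Opa1+/- against WT cochleae from edgeR (x axis), with 95% confidence intervals as lines, for the 10 class I and immunoproteasome genes (circles) and the 3 constitutive catalytic subunits, each placed under its inducible counterpart (squares). The intervals of H2-K1, H2-D1, Psmb8, Psmb10 and Nlrc5 lie above 0 before adjustment for multiple tests, and those of the other 8 genes cross it.

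The constitutive subunits of the same catalytic pairs were nearer to 0. *Psmb5* had a log2 fold change of 0.041 (95% confidence interval from -0.10 to 0.18), *Psmb6* of 0.060 (from -0.049 to 0.17) and *Psmb7* of -0.022 (from -0.19 to 0.14). None had an unadjusted p under 0.05. The immunoproteasome share of each pair was formed per mouse from CPM per kb. *Psmb10* made up 19.98, 18.1, 17.2 and 17.3% of *Psmb10* and *Psmb7* together in the WT mice, and 22.8, 20.2, 24.3 and 20.3% in the *Opa1*+/- mice. All 4 *Opa1*+/- mice were above the WT mice in this share, with the gap between WT_4 and Het_7 narrow. *Psmb8* made up between 5.47 and 7.02% of *Psmb8* and *Psmb5* in WT and between 6.46 and 8.39% in *Opa1*+/- mice, of which 3 were above the WT range. For *Psmb9* and *Psmb6* the shares were between 2.38 and 3.17% in WT and between 2.61 and 3.36% in *Opa1*+/- mice, with 1 above the WT range. At the RNA level, the constitutive subunit was the major one of each pair in every mouse of both genotypes. These shares depend on the exon lengths used and were not tested.

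**Figure D3:**
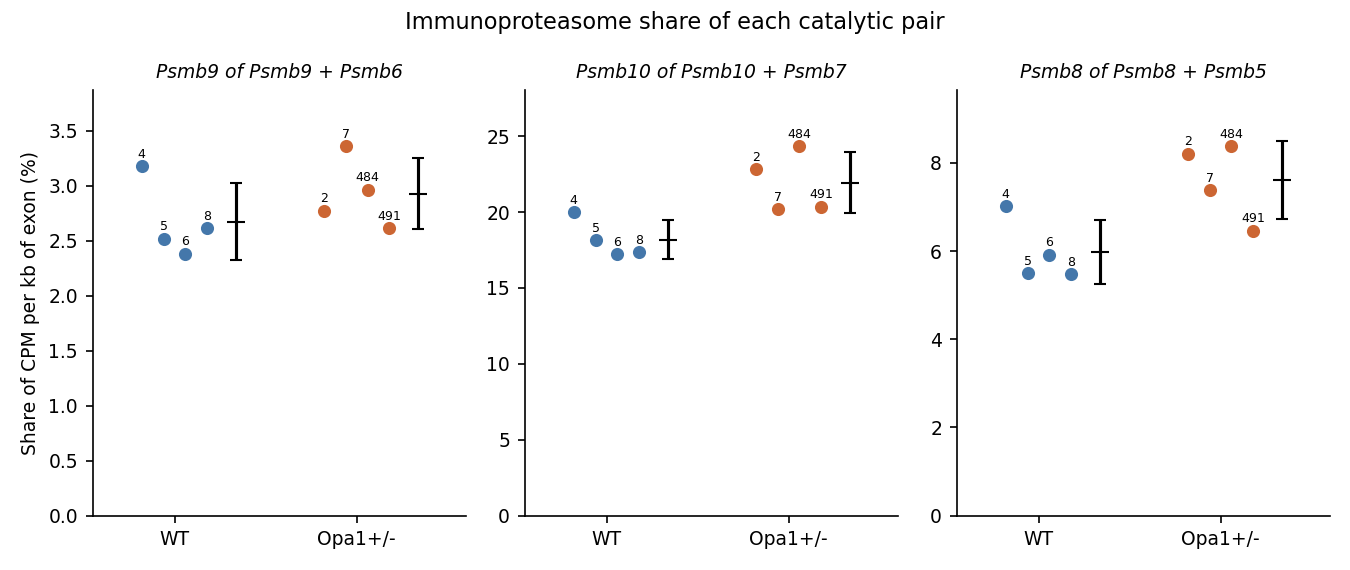
Share of the inducible subunit in each catalytic proteasome pair (y axes, percent of the summed CPM per kb of exon), 1 point per mouse with the number of its label and the mean and SD of 4 mice as black marks. The Psmb10 share of the 4 Opa1+/- mice sits between 20.2 and 24.3%, above the 17.2 to 19.98% of the WT mice, and the other 2 shares overlap.

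The rest of the proteasome was compared by the same fit. Of 40 other proteasome genes tested, namely the constitutive catalytic and shared 20S subunits, the 19S regulatory particle and the activators and assembly factors, 0 had an unadjusted p under 0.05 in edgeR, where 3.51% of all entries had such a p with higher and 3.22% with lower values. Their median log2 fold change was 0.031, and 27 were above 0, against 50.1% of all entries. Among the activators, *Psme2*, a subunit of the interferon-inducible PA28 cap, went from a mean of 33.2 ± 3.03 to 36.3 ± 2.42 CPM (SD, n = 4 each), with an edgeR p of 0.126 (adjusted p of 0.772). *Psmg4*, a chaperone of proteasome assembly, had the largest fitted value of the 40, a log2 fold change of 0.25, with 6.10 to 8.05 CPM in WT and 7.92 to 8.999 CPM in *Opa1*+/- mice (edgeR p of 0.0563, adjusted p of 0.748). *Psme4*, the PA200 activator, had a log2 fold change of -0.11, with the *Opa1*+/- mice between 62.2 and 63.1 CPM and the WT mice between 65.8 and 70.4 CPM (edgeR p of 0.0504, adjusted p of 0.741). It was the 1 gene of the 40 whose *Opa1*+/- mice all lay below the WT mice, which held for 2.33% of all entries. In the other direction, against 1.98% of all entries, the groups lay apart for *Psmb4*, a 20S subunit, with 68.9 to 71.2 CPM in WT and 72.7 to 76.7 CPM in *Opa1*+/- mice (edgeR p of 0.162, adjusted p of 0.790). They did so too for *Psmd3*, a 19S subunit, with 59.4 to 65.60 CPM and 65.63 to 68.5 CPM (edgeR p of 0.0643, adjusted p of 0.757). These 3 genes were singled out after their values were seen.

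The other class I heavy chain genes, mostly nonclassical molecules of the *H2-Q*, *H2-T* and *H2-M* families, had a median log2 fold change of 0.21. Of the 22 on the list, 18 are named in the tables and 15 were tested, of which 12 were above 0, against 50.1% of all entries, and 2 were higher at an unadjusted p under 0.05, against 3.51%. In 2 of them, *H2-Q5* and *H2-M3*, all *Opa1*+/- mice were above all WT mice, against 1.98% of all entries. *H2-Q5* ranged from 4.30 to 5.48 CPM in WT and from 5.74 to 7.67 CPM in *Opa1*+/- mice (log2 fold change of 0.50, edgeR p of 0.00691, adjusted p of 0.722). *H2-Q7*, which encodes Qa-2, ranged from 6.33 to 9.08 CPM in WT and from 8.51 to 13.3 CPM in *Opa1*+/- mice (log2 fold change of 0.48, edgeR p of 0.0207, adjusted p of 0.722). *H2-M3* ranged from 2.81 to 3.71 CPM in WT and from 3.78 to 4.21 CPM in *Opa1*+/- mice (log2 fold change of 0.21, edgeR p of 0.156, adjusted p of 0.7901) and was singled out after its values were seen. *H2-K2* had a log2 fold change of 0.45, with an edgeR p of 0.0526 (adjusted p of 0.741).

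Class I heavy chains are near copies of each other, and reads may have been split among them. Of all 80-base windows of their transcripts, 2.43% in *H2-K1* and 5.02% in *H2-D1* also occur in another gene. The counts of 18 heavy chain entries, with *H2-K1* and *H2-D1* and without *Mr1* and *Cd1d1*, were therefore also summed. *H2-K1* and *H2-D1* together made up 61.3% of the sum on average. *H2-D1* also shares windows with *Gm7030* and *Gm11127*, which are not in the sum, so reads counted there are not recovered. The sum was 326.0, 298.0, 320.1 and 307.2 CPM in the WT mice and 344.2, 388.1, 384.3 and 314.2 CPM in the *Opa1*+/- mice. Het_2, Het_7 and Het_484 exceeded the WT mice, and Het_491 did not. The log2 fold change of the sum was 0.19 with a standard error of 0.0787, and an edgeR p of 0.0351 (adjusted p of 0.7303) and an exact two-sided permutation p of 0.0857. The unadjusted edgeR p of the sum was between 0.0827 and 0.0996 without WT_5, WT_8, Het_7 or Het_484, and 0.101 with library sizes from total counts. Windows shared with other genes made up 17.8% in *Tapbp*, 9.65% in *Psmb8* and 7.61% in *Tap2*, most of them with overlapping genes on the opposite strand, and since the use of strand in counting is not given in the sources used here, those counts are less certain.

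The general folding, loading and trimming machinery had values on both sides of 0. Of its 14 genes, all tested, 6 were above and 8 below 0, with a median log2 fold change of -0.042. *Erap1*, the aminopeptidase that trims peptides in the endoplasmic reticulum, ranged from 21.6 to 24.6 CPM in WT and from 18.1 to 21.5 CPM in *Opa1*+/- mice, without overlap. Its log2 fold change was -0.21, with an edgeR p of 0.0242 (adjusted p of 0.722). *Canx*, the chaperone calnexin, was between 434.7 and 442.2 CPM in WT and between 402.9 and 421.8 CPM in *Opa1*+/- mice, also without overlap (log2 fold change of -0.089, edgeR p of 0.110, adjusted p of 0.766). In DESeq2's Wald test the p of *Canx* was 0.0109 before and 0.681 after adjustment. *Lnpep*, a trimming enzyme of endosomes, had a log2 fold change of -0.24 with an edgeR p of 0.0972 (adjusted p of 0.763). Groups that lie apart in the lower direction were found in 2.33% of all entries.

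**Figure D4:**
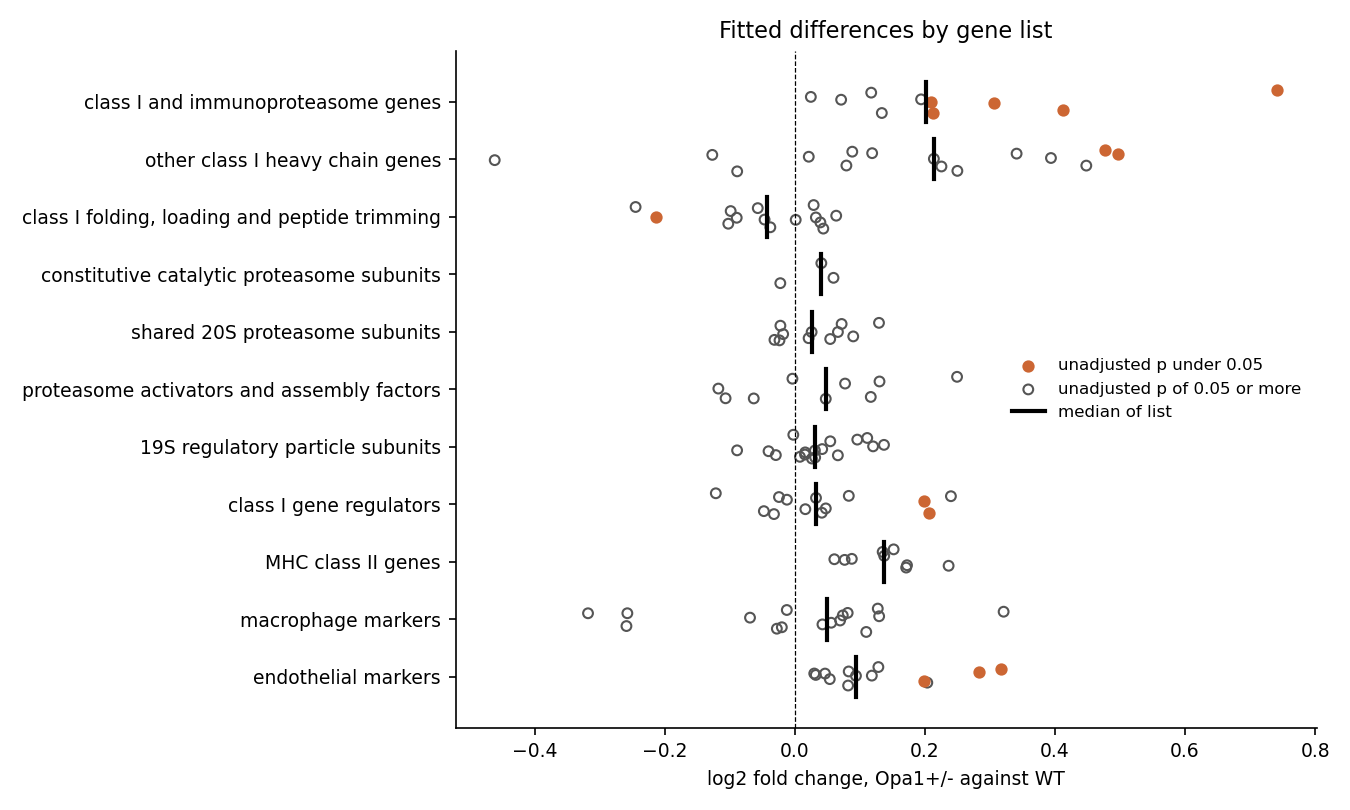
Log2 fold changes of Opa1+/- against WT cochleae (x axis) for each tested gene of 11 lists, with filled points for an unadjusted p under 0.05 and a bar for the median of each list. The medians of the class I and immunoproteasome genes and of the other class I heavy chain genes are 0.20 and 0.21, that of the MHC class II genes is 0.14, and those of the 4 other proteasome lists lie between 0.026 and 0.048.

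The regulators of class I genes include the factors of the promoter complex and those of interferon signalling. Of 13 tested, 8 were above 0, and the median log2 fold change was 0.033. *Irf1*, a transcription factor induced by interferon gamma, had 15.7 ± 0.908 and 18.1 ± 1.53 CPM (SD, n = 4 each), with a log2 fold change of 0.21 and an edgeR p of 0.0354 (adjusted p of 0.728). *Creb1*, which binds TGACG half-sites, had a log2 fold change of -0.12 with an edgeR p of 0.0939 (adjusted p of 0.762). *Ifng*, the gene of interferon gamma itself, had 0 counts in all 8 libraries, which allows a level of up to 0.144 to 0.188 CPM per library for counting error alone.

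Class II genes, which are expressed by antigen-presenting cells, had 9 of 11 members tested, with 9 of 9 above 0 (50.1% of all entries), a median log2 fold change of 0.14 and 0 with an unadjusted p under 0.05 in edgeR or in DESeq2. With 1 mouse left out, the class II median ran from 0.059 without Het_484 to 0.19 without WT_4, and was 0.062 without WT_5. *Cd74*, the invariant chain, had a WT mean of 147.2 ± 16.9 CPM against 165.7 ± 7.73 CPM in *Opa1*+/- cochleae (SD, n = 4 per genotype), with an edgeR p of 0.0823 (adjusted p of 0.758). *H2-Ab1* and *H2-Eb1* had log2 fold changes of 0.15 and 0.14. The class II sum ranged from 281.0 to 359.0 CPM in WT and from 339.6 to 380.4 CPM in *Opa1*+/- mice (exact two-sided permutation p of 0.0857, 0.762 after Benjamini-Hochberg adjustment over 10 marker sums). In whole cochleae, a different number of cells of a type and a different amount of RNA per cell cannot be told apart.

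Markers of the cells that could carry class I RNA were summed in the same way. The 16 macrophage markers, all listed, gave 216.2 to 334.6 CPM in WT and 242.0 to 325.4 CPM in *Opa1*+/- mice (exact two-sided permutation p of 0.914), and 9 of the 16 were above 0 in the fit. Of the 16 T and NK cell markers 5 were tested, and the sum was 7.81 to 11.3 CPM in WT and 8.85 to 11.8 CPM in *Opa1*+/- mice. Their defining markers *Cd3d* and *Cd3e* were at most 0.433 and 0.9703 CPM in any mouse, and *Cd3d* had 0 counts in WT_8. All 13 endothelial markers were above 0, against 50.1% of all entries, and their sum ranged from 435.4 to 484.3 CPM in WT and from 439.5 to 540.4 CPM in *Opa1*+/- mice (exact two-sided permutation p of 0.229). Among them *Cdh5* (VE-cadherin), *Robo4* and *Plvap* were higher at an unadjusted p under 0.05, against 3.51% of all entries, with log2 fold changes of 0.20, 0.28 and 0.32. The part of endothelial cells in the class I values was not tested. Markers of the labelled tissue were present in each library, with all 14 hair cell and all 14 spiral ganglion neuron markers tested and median log2 fold changes of -0.0099 and 0.040. The markers of the stria vascularis were below 0 in 9 of 9 tested, with a median of -0.18 and 0 with an unadjusted p under 0.05 in edgeR or in DESeq2, and their sum ranged from 1008 to 1942 CPM in WT and from 1152 to 1444 CPM in *Opa1*+/- mice.

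Blood and marrow markers varied within both groups, and the fitted values of erythroid markers were mostly above 0. Of 13 erythroid markers tested, 12 were above 0 (50.1% of all entries), with a median log2 fold change of 0.52, which is larger than the 0.20 of the class I and immunoproteasome genes. With 1 mouse left out, the median of these erythroid markers ran from 0.27 without WT_6 to 0.94 without WT_4. With a surrogate variable it was 0.34 for these markers. Their sum averaged 12728 CPM for WT against 18675 CPM for *Opa1*+/- mice, 46.7% higher, with overlapping groups (7897 to 21654 against 15233 to 25239 CPM) and an exact two-sided permutation p of 0.171 (0.762 after Benjamini-Hochberg adjustment over 10 marker sums). Neutrophil and marrow markers summed to 1586 CPM in WT_4 where the other WT mice had 490.3 to 603.5 CPM, and to 1289 CPM in Het_491 and 964.8 CPM in Het_484 against 593.5 CPM or less in the other 2. Within each genotype, erythroid markers were likewise highest in WT_4 and Het_491. B cell markers were highest in the same 2 mice, at 144.6 and 235.4 CPM. WT_4 was the highest WT mouse for 6 of the 10 genes, and Het_491 the lowest *Opa1*+/- mouse for 7. Leaving out mice at these facing ends of the groups widens the gap by the choice itself, so the values without them are a description and no sign of stability. With both left out, 7 of the 10 genes had an unadjusted p under 0.05, against 4.43% of all entries, and the median log2 fold change was 0.31, while that of the erythroid markers was 0.77. With Het_484 left out as well, 6 of 10 had such a p, against 2.59%, and the medians were 0.30 and 0.71. In both settings 0 of the 10 passed an adjusted p of 0.05 in edgeR, and all 10 values were above 0. The part of blood and marrow in these values was not tested.

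**Figure D5:**
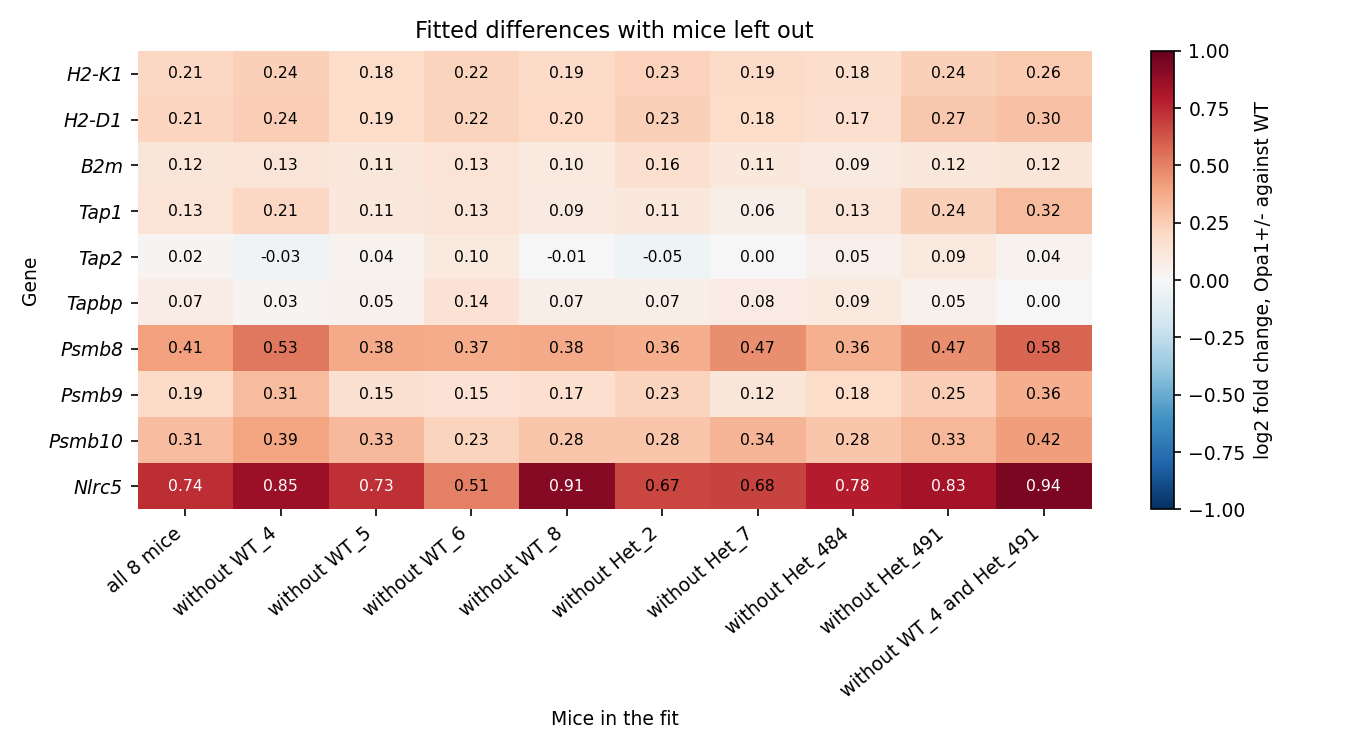
Log2 fold changes of Opa1+/- against WT cochleae from edgeR for the 10 genes (y axis) with all 8 mice, with each mouse left out in turn, and with WT_4 and Het_491 left out together (x axis); colour and printed value give the log2 fold change. Values of 9 genes stay above 0 in each column, and those of Tap2 fall below 0 without WT_4, WT_8 or Het_2.

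Het_484 was the highest of the 8 for 4 genes, *H2-K1*, *H2-D1*, *B2m* and *Psmb8*, and Het_2 for 3, *Tap2*, *Psmb10* and *Nlrc5*. WT_6 was the lowest of the 8 for 4 genes, the 3 inducible proteasome subunits and *Nlrc5*. The summed CPM of the 10 genes was 558.5 to 601.7 in WT and 614.9 to 676.1 in *Opa1*+/- mice, a sum in which *B2m* and both heavy chains weigh most. The mean standardized log2 CPM of the 10 genes was used to find the genes with the most similar pattern over the 8 mice, among 17956 candidates with at least 1 CPM on average. These were *Ddit3*, *2700094K13Rik*, *Arap3*, *Wdr18* and *Pold2*, with Pearson's r between 0.94 and 0.96, given as a description since they were picked for it. *Ddit3*, which encodes the stress-responsive factor CHOP, had 26.1 to 30.1 CPM in WT and 31.7 to 39.2 CPM in *Opa1*+/- mice. Its adjusted p in edgeR was 0.722, and groups lay apart in this direction in 1.98% of all entries. The mean it was picked to follow itself differs between the genotypes. The 8 points share the difference between genotypes and the libraries.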

How the data were processed

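The authors extracted RNA from isolated cochleae, prepared CORALL libraries with molecular identifiers, sequenced paired reads of 80 nucleotides, trimmed adapters and mapped them to GRCm38/mm10 with STAR. The counting program and its use of strand are not given in the sources used here. The deposited values are raw counts per gene, 1 table per mouse. Entries without a gene name (15, between 0.112 and 0.124% of counts) were left out. Counts on named entries ranged from 15978051 to 20828030 per mouse, and counting error weighs most for *Nlrc5*, the gene with the fewest counts. The mice are separate animals.

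Entries with a mean count over 10 after DESeq2 scaling (19366) were fitted with edgeR 4.0.16 (TMM factors between 0.948 and 1.06, quasi-likelihood test without robust estimation, Benjamini-Hochberg adjustment, threshold 0.05), in R 4.3.3. The authors' tool, DESeq2 (1.42.0), was an alternative, as were other scalings and filters, limma 3.58.1 voom, sva 3.50.0 and mice left out. Both tests were also run on simulated counts with 200 genes changed by known folds, and the outcome is not reported here. CPM use TMM library sizes. Exact permutation tests used all 70 arrangements of the 8 mice. Mitochondrial transcripts took 11.7 to 16.1% of counts.

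The members and lists were chosen with earlier results of these data known. Named genes are all members, *Opa1*, the constitutive counterparts of the inducible subunits, up to 3 genes of lowest p and any past the threshold per list, the first 2 markers of each cell type and the 5 genes of most similar pattern. *Ifng* was named after its counts were seen. Of the listed genes, 1 is not reported here. Python 3.11.15 and matplotlib 3.10.9 were used for figures.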

Additional observations from a re-analysis of the deposited data

Results flagged for a closer look

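In groups of 4 mice, 1 mouse was far from the other 3 in 6 of the 96 groups examined, where chance gives about 4.8. Of the class I and immunoproteasome genes, *Psmb8* was 12.96 CPM in WT_4 where the other WT mice had 9.50 to 9.74 CPM, and *Psmb9* was 4.17 CPM in the same mouse against 2.99 to 3.18 CPM. This mouse also held 1586 CPM of neutrophil and marrow markers where the other WT mice had 490.3 to 603.5 CPM. *Cd74* was 122.0 CPM in WT_5 where the other WT mice had 152.8 to 157.7 CPM, and 154.1 CPM in Het_2 against 169.2 to 170.2 CPM in the other *Opa1*+/- mice. T and NK cell markers summed to 11.8 CPM in Het_491 against 8.85 to 8.99 CPM in the other *Opa1*+/- mice.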

How the results depend on the processing

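Under each of the 22 alternatives, 0 of the 10 class I and immunoproteasome genes had an adjusted p past the threshold. The alternatives covered scalings, filters, tools (edgeR, DESeq2, limma voom), a surrogate variable, mice left out, an adjusted threshold of 0.1 and summed heavy chains. The 5 genes with an unadjusted p under 0.05 became 2 with library sizes from total counts alone, a scaling that moved the median of all entries to -0.028, and ranged from 2 to 5 with 1 mouse left out: 2 without Het_484 and 3 without WT_5, WT_8 or Het_7. The share of all entries higher at such a p was 2.37% with total counts and 2.93% without Het_484. It was 3.37% without WT_5, 1.76% without WT_8 and 3.61% without Het_7, against 3.51% with all 8 mice. *H2-K1* and *Psmb8* kept an unadjusted p under 0.05 in all 20 alternatives that gave them a value. The median log2 fold change of the 10 genes ranged from 0.15 to 0.24 with 1 mouse left out and was 0.306 without WT_4 and Het_491 and 0.301 without Het_484 in addition, both comparisons chosen after seeing the data. WT_4 was often the highest WT mouse and Het_491 often the lowest *Opa1*+/- mouse, so leaving them out raises the median by construction. *Tap2*, whose values ranged from -0.046 to 0.0999 with 1 mouse left out, turned to -0.032 without WT_4, -0.0051 without WT_8 and to its lowest value without Het_2, and the cause was not tested. The sum of class I heavy chains ranged from 0.15 to 0.25 on the log2 scale with 1 mouse left out. The litter of each mouse is not given in the sources used here, so no analysis paired or blocked by litter was run. Depth limits *Nlrc5*, with 9 to 47 counts per mouse.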
